A study of Saccharomyces cerevisiae with 24 samples.

Results

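The cytosolic ribosomal protein genes of budding yeast were examined for binding of Yrr1, measured by chromatin immunoprecipitation and sequencing (ChIP-seq). They were taken from the sacCer3 annotation as the nuclear protein-coding genes whose standard name is RPL, RPS or RPP followed by a number: 138 of 6002 genes, of which 76 are RPL, 56 RPS and 6 RPP genes. RPP1 meets this rule by its name, although it encodes a subunit of RNase P and not a ribosomal protein, so the main counts of genes that include it are also given without it. Of the 1711 regions in the deposited region table, 157 overlapped a ribosomal protein gene, from its start to its stop codon or in the 500 bp upstream, and 120 of the 138 genes had such a region. Where a gene had several regions, letters mark their order along the chromosome. The cells were strain S96 with its own YRR1 gene deleted (yrr1Δ), carrying a Myc-tagged YRR1 allele: that of strain YJM789, that of S96, or the S96 allele with the amino acid change I775E. Cultures of the 3 strains were kept in the rich medium YPD or received 0.25 µg/ml of 4NQO, a drug that damages DNA, for 2.5 h, which gives 6 groups named here by allele and medium. Each group had 3 anti-Myc ChIP libraries and 1 input library. Untagged cells were not analysed here, and the 3 ChIP libraries of a group share its input, so a difference between groups and a difference between their inputs cannot be told apart. The series' design text speaks of triplicates and the growth protocol of 2 replicated cultures, so the spread behind each p-value is that among libraries and may be in part technical.

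Ribosomal proteins and ribosomal RNA form the small (RPS) and large (RPL) subunits of the ribosome, and the RPP proteins form the stalk of the large subunit, which recruits translation factors. In yeast most of these proteins are encoded by a pair of duplicated genes, and many of the genes carry an intron. Together they are among the most heavily transcribed genes of growing cells. Rap1, Fhl1 and Ifh1 act at their promoters, and the TOR pathway promotes their transcription, which falls under stress. Yrr1 is a zinc cluster transcription factor that activates genes of multidrug resistance, among them the exporter gene SNQ2, and factors of this family read CCG triplets.

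Sequence is shown for 6 of the regions on which the results below turn, as the 150 bases around the strongest point of the library with the highest value. They are written 5′ to 3′ on the coding strand of the ribosomal protein gene, from RefSeq's sacCer3 (R64) sequence, with CCG or CGG triplets in capitals. RPS14B (chrX:74324-74473, forward strand) and RPL5 (chrXVI:303347-303496, forward strand) had MACS2 peaks in more libraries than any other ribosomal protein gene, and both windows are coding sequence. RPL4A (chrII:300334-300483, forward strand) differed between alleles and media, and its window is coding sequence too. RPL28 (chrVII:311195-311344, forward strand) and RPS14A (chrIII:177972-178121, reverse strand) differed between media, and the windows are centred in their introns. The last window (chrX:607274-607423, forward strand) belongs to a region that meets the rule for RPL43B, but its strongest point is at −956 bp from the RPL43B start codon, inside the noncoding RNA gene IRT1.
RPS14B: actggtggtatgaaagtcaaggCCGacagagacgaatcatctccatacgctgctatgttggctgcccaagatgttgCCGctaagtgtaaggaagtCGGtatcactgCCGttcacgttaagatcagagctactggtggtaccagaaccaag
RPL5: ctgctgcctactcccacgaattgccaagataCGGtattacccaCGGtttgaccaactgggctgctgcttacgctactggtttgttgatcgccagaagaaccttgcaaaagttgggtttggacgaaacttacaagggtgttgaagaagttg
RPL4A: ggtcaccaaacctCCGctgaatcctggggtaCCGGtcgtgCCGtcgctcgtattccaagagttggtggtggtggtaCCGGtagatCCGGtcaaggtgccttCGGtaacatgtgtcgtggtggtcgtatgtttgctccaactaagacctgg
RPL28: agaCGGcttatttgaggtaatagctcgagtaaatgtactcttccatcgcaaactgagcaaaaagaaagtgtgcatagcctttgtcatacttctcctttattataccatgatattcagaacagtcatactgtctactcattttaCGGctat
RPS14A: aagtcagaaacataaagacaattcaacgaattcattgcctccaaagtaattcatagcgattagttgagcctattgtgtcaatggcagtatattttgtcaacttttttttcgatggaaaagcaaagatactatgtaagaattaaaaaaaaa
IRT1 upstream of RPL43B: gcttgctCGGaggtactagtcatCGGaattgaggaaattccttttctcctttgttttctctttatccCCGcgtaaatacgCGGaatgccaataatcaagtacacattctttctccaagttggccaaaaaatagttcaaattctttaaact

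The IRT1 window held 4 such triplets and a match to the Yrr1 element, atacgcgga, which starts at its base 76, next to the strongest point. The element searched was A or T, then CCG, then C or T, 2 bases that are each G or T, and 2 bases that are each A or T, on both strands. The RPL4A window held 9 triplets and 1 match, tccgctgaa, from base 13. The windows of RPS14B, RPL5 and RPL28 held 4, 2 and 2 triplets and no element, and the RPS14A window held neither. Over all members, the element was found in the 150 bases around the strongest point of 8 of 157 ribosomal protein regions (5.10%) and 68 of 1535 other nuclear regions (4.43%). In the 500 bp upstream of the start codon it was found in 22 of 138 ribosomal protein genes (15.9%) and in 16.2% of all genes. The core of the Rap1 motif, CACCC and ACA with any 2 bases between them, searched in the same upstream windows on both strands, was in 29 ribosomal protein genes (21.0%) and in 2.23% of all genes. None of the windows around the strongest points of the 157 ribosomal protein regions held that core, and 28 of those of the 1535 other nuclear regions (1.82%) did.

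Sequencing depth is unknown, since the tables used here hold no read counts, and counting intervals are therefore not given. The number of MACS2 peaks listed per ChIP library ran from 7 to 630 and differed within groups. It was 630, 519 and 32 in the YJM789 libraries in 4NQO and 7 to 12 in those in YPD. At SNQ2 (chromosome IV 464940 to 465905) the strongest point of the region had an SD of 12.7 bp over 18 libraries, and in 18 of 18 it lay within 50 bp of its median position. Pearson's r of log2 values between libraries of a group, over all tested regions, ran from 0.485 to 0.623 over the 6 groups.

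Which ribosomal protein genes had a peak of ChIP over input was asked first, with MACS2 peaks called by the authors in each library. In YJM789 cells in 4NQO, 31 of 138 ribosomal protein genes (22.5%) reached a peak in 2 or 3 libraries, 30 of them without RPP1, while 5.53% of all 6002 genes did. The counts in the other groups were 0 for YJM789 in YPD, 9 (YPD) and 12 (4NQO) in S96 cells and 9 (YPD) and 3 (4NQO) in S96-I775E cells, beside 0.1%, 1%, 0.933%, 0.716% and 0.5% of all genes. The libraries of a group contributed unequally to these counts. With 1 library left out, a gene needed a peak in both that remained, so a count could only fall or stay. In the 3 YJM789 libraries in 4NQO, 44, 43 and 2 ribosomal protein genes had a peak, beside 593, 491 and 23 of all genes. The count of 31 fell to 1 when either of the first 2 libraries was left out. Over all genes, 332 fell to 17. The S96 libraries had 3, 13 and 23 ribosomal protein genes with a peak in YPD and 2, 26 and 30 in 4NQO. Over all genes these counts were 21, 95 and 152 in YPD and 26, 119 and 145 in 4NQO. The S96-I775E libraries had 5, 23 and 12 in YPD and 5, 4 and 2 in 4NQO. Over all genes they had 35, 129 and 59 in YPD and 45, 31 and 29 in 4NQO. In every group the library with the most listed peaks also had the most ribosomal protein genes with a peak. Without S96 library 2 or 3 in YPD the count of 9 fell to 0 or 1. Over all genes, 60 fell to 13 or 16. Without S96 library 2 or 3 in 4NQO the count of 12 fell to 2 or 1. Over all genes, 56 fell to 19 or 9. Without S96-I775E library 1, 2 or 3 in YPD the count of 9 fell to 5, 0 or 4. Over all genes, 43 fell to 26, 14 or 19. Without S96-I775E library 1 in 4NQO the count of 3 fell to 1, and that over all genes from 30 to 15. In all, 88 of 138 genes had a peak in at least 1 library and 44 (31.9%) in at least 2 libraries of some group, beside 6.78% of all genes. Without RPP1 these counts were 87 and 43 of 137. Whether groups differed in these counts was not tested.

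**Figure D1:**
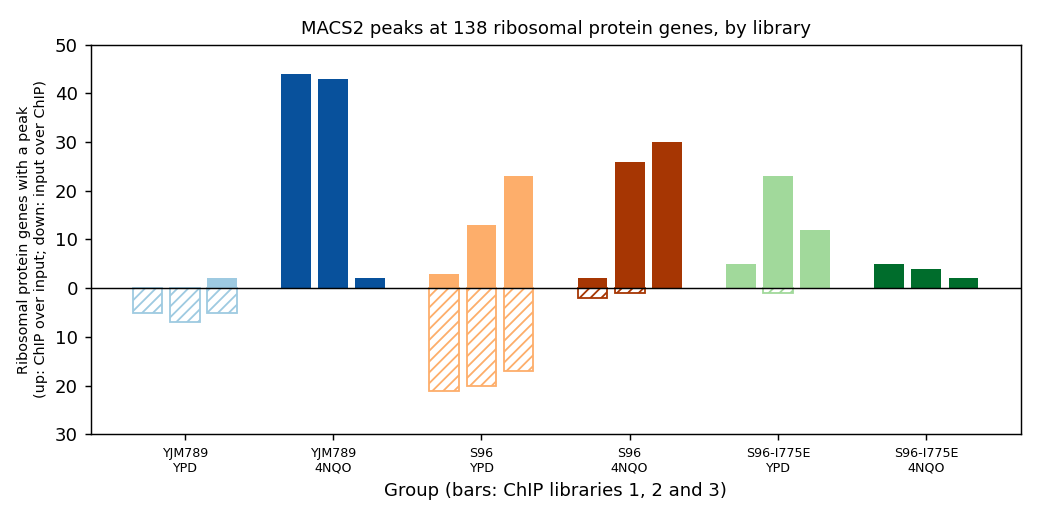
Number of ribosomal protein genes with a MACS2 peak in each of the 18 ChIP libraries (x axis: groups, 3 bars each); filled bars above 0 are peaks of ChIP over input and hatched bars below 0 are peaks of input over ChIP. YJM789 libraries 1 and 2 in 4NQO stand at 44 and 43, where 593 and 491 of all genes had a peak (not drawn). The input-over-ChIP peaks stand highest in S96 in YPD, at 17 to 21 genes.

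The peaks at these genes were low. Their median fold, the authors' own ratio of ChIP over local background, was 1.71 over 250 peaks, beside 1.76 over 1962 peaks elsewhere. The median −log10 q was 2.60 at ribosomal protein genes and 2.86 elsewhere. The highest fold was 5.66, in an S96 library in YPD, at a peak listed for RPL43B that belongs to IRT1. Without RPL43B the highest was 2.35, at RPL10 in a YJM789 library in 4NQO, and 25 of 243 peaks reached a fold of 2. When that fold was required, 5 genes kept a peak in at least 2 YJM789 libraries in 4NQO and no gene did in the other 5 groups, beside 0.816% of all genes in the former. In YPD the shares of all genes were 0.0333% for YJM789, 0.1% for S96 and 0.0333% for S96-I775E, and in 4NQO they were 0.0833% for S96 and 0.117% for S96-I775E.

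Of the large subunit, RPL5, whose protein binds the 5S ribosomal RNA (XVI 303121 to 304014), had a peak in 10 of 18 libraries. Its folds were 2.27 and 2.24 in YJM789 in 4NQO, 1.74 in 1 S96 library in YPD and 1.72, 1.85 and 1.84 in the 3 S96 libraries in 4NQO. In S96-I775E they were 1.67 and 1.73 in YPD and 1.80 and 1.63 in 4NQO. RPL5 was thus the gene with a peak in every S96 library in 4NQO, and no YJM789 library in YPD had one. The summit of the S96 peak in YPD lay at −579 bp from the start codon, beyond the window, and the other summits in coding sequence. In S96 library 2 in YPD a peak of input over ChIP had its summit at 281 bp. RPL28 (VII 310967 to 311927), a large subunit protein from a single gene with a long intron, was the gene with a peak in every YJM789 library in 4NQO, at folds of 1.848, 2.099 and 1.945. It had 4 further peaks, in 1 S96 library in 4NQO, 2 S96-I775E libraries in YPD and 1 in 4NQO. RPL4A and RPL4B, a pair for 1 protein that lines the exit tunnel, had peaks in 5 and 7 libraries. In YJM789 in 4NQO the folds were 2.102 and 2.338 at RPL4A and 2.197 and 1.90 at RPL4B. Their coding sequences are 98.9% identical, with an identical run of 422 bp, so reads from this stretch cannot be told apart, and no source used here says how the authors placed such reads. RPL10, whose protein is needed for the subunits to join (XII 282927 to 283592), had folds of 2.35 and 2.30 in YJM789 in 4NQO, 2.04 and 1.61 in S96 in 4NQO and 1.63 in 1 S96-I775E library in YPD. RPL3, the protein nearest to the peptidyl transferase centre, had peaks in 6 libraries, and RPL2B, RPL9A and RPL29 in 5.

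Of the small subunit, RPS14B (X 73787 to 74611) had a peak in 10 libraries. Its protein sits on the platform of the subunit and also represses splicing of the RPS14B transcript itself. The folds were 1.88 and 1.90 in YJM789 in 4NQO, 1.56 and 1.57 in S96 in YPD, 1.59 in 1 S96 library in 4NQO and 1.60 and 1.497 in S96-I775E in YPD. In S96-I775E in 4NQO it was the gene with a peak in 3 of 3 libraries, at folds of 1.74, 1.60 and 1.86. Its duplicate RPS14A, 92.1% identical in coding sequence, had peaks in 4 libraries, at folds of 2.09 and 1.98 in YJM789 and 1.59 and 1.59 in S96, all in 4NQO. RPS9A had peaks in 6 libraries, and RPS22A, RPS31, which encodes a fusion of ubiquitin and a ribosomal protein, and RPS3, at the entry of the mRNA channel, in 5. RPS22A had none in a YJM789 library, and RPS9A was the gene among these with a peak in a YJM789 library in YPD, at a fold of 1.696. Of the stalk, RPP0, the base of the stalk, had peaks in 4 libraries, with folds of 2.12 and 2.003 in YJM789 in 4NQO.

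**Figure D2:**
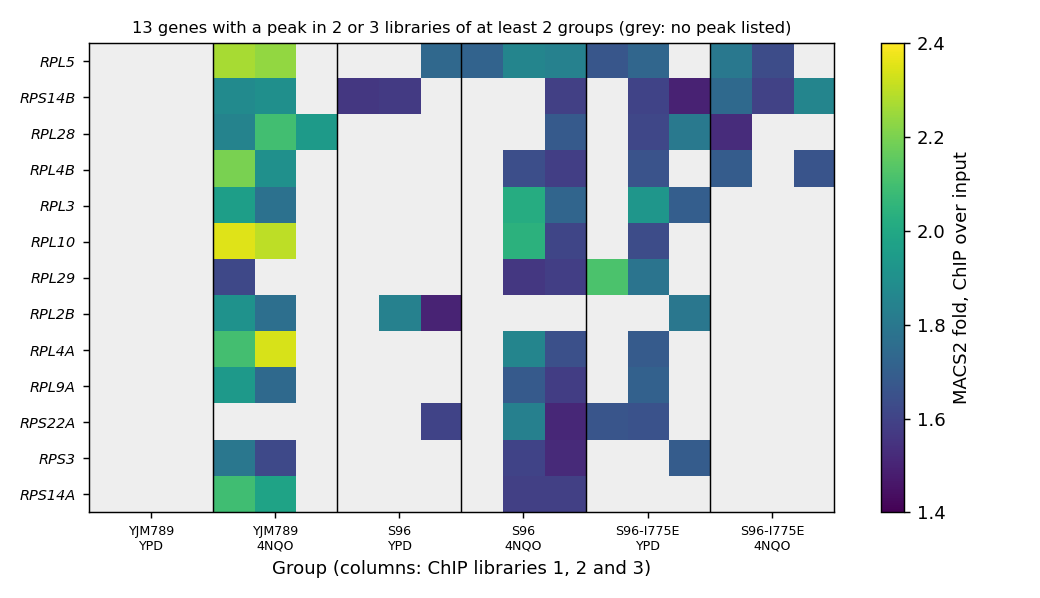
MACS2 fold of ChIP over input (colour) at 13 of the 14 ribosomal protein genes with a peak in at least 2 libraries of at least 2 groups (rows), in the 18 ChIP libraries (columns); grey means that no peak was listed. The folds lie between 1.497 and 2.35, none of the 13 genes shown had a peak in YJM789 in YPD, and RPL5 and RPS14B fill 10 columns each.

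The 44 genes with a recurrent peak and the other 94 differed in several properties, given here as a description. A gene's length, introns included, sets the window in which a peak counts, so length and introns are not independent of the rule. The median coding length was 585 bp (quartiles 426 and 765) for the 44 and 411 bp (325 and 519) for the others, beside 1194 bp over all nuclear genes. The GC content of the coding sequence had a median of 44.3% and 42.7%, beside 39.8% over all genes. Of the 44, 21 (47.7%) had no intron, and of the others 28 (29.8%). In S96 in YPD the order was the opposite, with a recurrent peak at 8 of 89 genes with an intron (8.99%) and 1 of 49 without (2.04%). A recurrent peak was found at 15 of 20 genes with no A and B copy, or 14 of 19 without RPP1. Of the 59 duplicate pairs, 8 had one at both copies, among them RPL2, RPL4, RPL7, RPL8, RPL9, RPS4 and RPS14, 13 at 1 copy and 38 at neither. The median coding length was 750 bp for the 8 pairs, 417 bp for the 13 and 411 bp for the 38, and the median identity between copies was 95.9%, 93.1% and 92.6%. Over all 59 pairs the identity ran from 70.7% to 99.4%, and 16 pairs had an identical run of over 100 bp, so the values of those copies are uncertain.

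The peaks lay over the transcribed part of these genes. Of 312 pairs of a ChIP-over-input peak and a ribosomal protein gene, the summit was in coding sequence in 70.5%, in an intron in 16.0%, upstream of the start codon in 2.88% and downstream of the stop codon in 8.97%. At all other genes, 28.0% of 2288 summits were upstream and 51.1% in coding sequence. The peaks of the reverse test, input over ChIP, lay elsewhere at the same genes. Of 82 such pairs, 65.9% had the summit upstream and 9.76% in coding sequence, with a median position of −231 bp from the start codon, against 396.5 bp for ChIP over input. The libraries of a group share 1 input, so a reverse peak in several of them is not a replicate result. The same input feature can enter these pairs for each library. At RPL12A the summit was at −369 bp in all 3 S96 libraries in YPD. Reverse peaks in at least 2 of 3 libraries were found at 17 ribosomal protein genes in S96 in YPD, 16 without RPP1, beside 7.35% of all genes. They were found at 4 genes in YJM789 in YPD, beside 2%, at 1 gene in S96 in 4NQO, beside 0.566%, and at 0 in the other 3 groups, beside 0.333%, 0.167% and 0.183%. RPL24A and RPL30, divergent neighbours on chromosome VII, had one in every YPD library of YJM789 and S96. The summits lay between these genes, so the same input feature counts at both. RPS24B had one in 2 libraries of each of these groups, and RPS17A in 3 YJM789 libraries and no S96 library. The other genes in S96 in YPD were RPL12A, RPL15B, RPL19A, RPL19B, RPL2A, RPL31B, RPL40A, RPL6A, RPL6B, RPP1, RPS0A, RPS24A, RPS4B and RPS6A, and the gene in S96 in 4NQO was RPL15A. Of the 19 genes with a recurrent reverse peak, 6 also had a recurrent peak of ChIP over input, or 5 of 18 without RPP1.

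**Figure D3:**
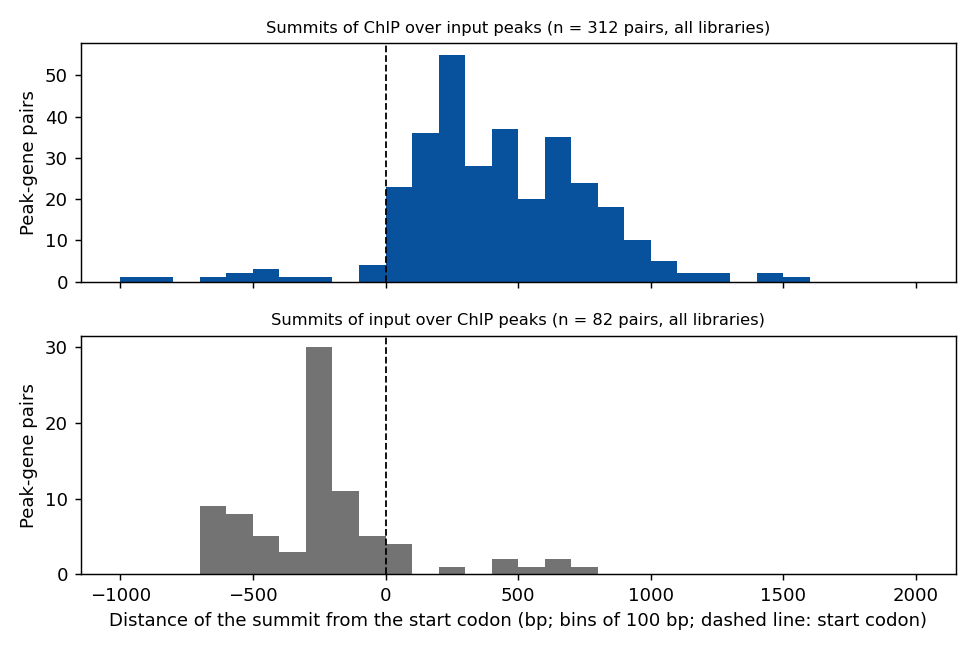
Distance of peak summits from the start codon of ribosomal protein genes (x axis, bp, bins of 100 bp; y axis, peak-gene pairs over all 18 libraries), for ChIP over input (upper panel, 312 pairs) and input over ChIP (lower panel, 82 pairs). The upper distribution lies after the start codon with a median of 396.5 bp, and the lower lies mostly before it.

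CisGenome, the second peak caller, listed peaks per group under 4 settings. At least 1 was listed at 3 ribosomal protein genes in YJM789 in YPD, 9 in YJM789 in 4NQO, 12 in S96 in YPD, 15 in S96 in 4NQO, 6 in S96-I775E in YPD and 5 in S96-I775E in 4NQO, 4 of them without RPP1. The shares of all genes were 0.117%, 2.23%, 0.85%, 2.22%, 0.95% and 1.85% in that order. In all, 34 genes had 1 and 13 had one with a false discovery rate under 1, or 33 and 12 without RPP1. The 13 were 1 in S96 in YPD, 8 in S96 in 4NQO and 4 in S96-I775E in 4NQO, beside 0.0167%, 1.05% and 1.1% of all genes. At RPL43B the false discovery rate was 0, with a log2 fold of 3.70, at the IRT1 peak. At the other 12 it was 0.827 (RPL4B, RPP1, RPS3, RPS14B) or 0.987 (among them RPL15A, RPL28, RPL34A, RPL36B, RPP0, RPS12, RPS19A).

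The region table gives for each ChIP library the rise, the authors' difference in coverage between ChIP and input (a score) at a region's strongest point, less the mean score of the surroundings. The median region mean of the rise over the 18 libraries was 32.0 at the 157 ribosomal protein regions (quartiles 28.1 and 38.4) and 28.1 at the 1535 other nuclear regions. In all 18 libraries the ribosomal protein median was higher, at 27.3 to 39.8 against 24.0 to 31.7. Their regions were also longer, with a median of 668 bp against 578 bp. For overlaps with regions, MACS2 peaks from either of the authors' parameter sets, mn and m2, were counted. A peak of ChIP over input overlapped 79.6% of the ribosomal protein regions and 62.9% of the others, and a peak of input over ChIP 26.1% and 48.9%. Of the 157 regions, 8 also hold a snoRNA or snRNA gene and 1 a tRNA gene, whose signal cannot be told apart from that of the host gene.

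The surroundings of the strongest point scored differently at these genes. Their median at ribosomal protein regions was above 0 in 18 of 18 libraries, between 5.10 and 14.97. At other nuclear regions it lay between −13.9 and 13.2. The gap was widest in S96 in YPD, where the mean of the 3 library medians was 11.4 ± 3.16 (SD, n = 3 libraries) at ribosomal protein regions and −12.7 ± 1.84 at the others. In YJM789 in YPD the means were 6.31 ± 1.37 and −4.39 ± 3.37. In S96-I775E in YPD they were 9.78 ± 2.15 and 5.53 ± 2.25. In 4NQO they were 8.48 ± 1.71 and 10.4 ± 3.43 in YJM789 cells, 11.4 ± 3.35 and 3.20 ± 2.92 in S96 cells, then 7.44 ± 0.615 and 7.502 ± 1.17 in S96-I775E cells. The order between the kinds of region was thus not the same in every group, and in 13 of 18 libraries the ribosomal protein median was the higher.

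**Figure D4:**
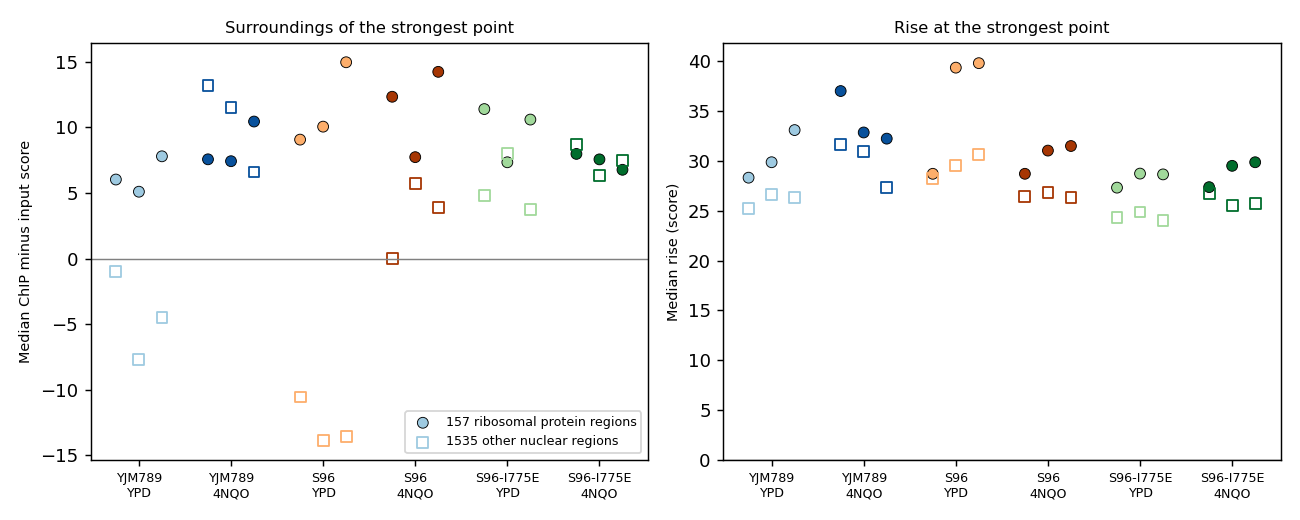
Median score of the surroundings (left) and median rise (right) in each of the 18 ChIP libraries (x axis: groups), for the 157 ribosomal protein regions (filled circles) and the 1535 other nuclear regions (open squares). The circles stay above 0 in the left panel, while the squares of S96 in YPD fall to between −13.9 and −10.6.

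Within a region, the strongest point moved from library to library. Its position had a median SD of 178 bp over the ribosomal protein regions, against 12.7 bp at SNQ2, 47.7 bp at SNG1, a gene of nitrosoguanidine resistance, and 13.8 bp at IRT1. At the 2 regions of the YRR1 locus it was 157.6 bp and 102.1 bp. Over all regions the median was 161 bp. Of 2602 strongest points, 43.8% were in coding sequence, 17.2% in introns, 21.9% downstream of the stop codon, 8.72% upstream and 8.38% beyond the windows. The strongest point was upstream in most libraries at 7 of 157 regions. At RPS8A (b) this was so in 13 of 13 libraries with a value, at RPL24A/RPL30 in 15 of 16 and at RPS0B in 7 of 7. The others were RPS11B (a), RPS24A (a), RPL42B (b) and RPL33A (a). All 7 regions overlapped a peak of input over ChIP in some library, and 1 of 7 overlapped a peak of ChIP over input, with peaks of either parameter set counted.

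The region with the highest mean rise was that of IRT1 upstream of RPL43B, at 216.7. Next came RPS24B at 61.1, RPL34B at 58.3, RPS1B at 52.7, RPL31B at 51.3 and RPL24A/RPL30 at 51.2, followed by RPS0A (a), RPL2A, RPS8A (b) and RPL3 at 47.5 to 49.3. The lowest were RPL34A (a) at 17.3, RPS10B (a), RPL13B, RPS19A and RPS11B (a), at 19.7 to 20.3. SNQ2 stood at 196.7, SNG1 at 81.3 and the 2 regions of the YRR1 locus at 28.3 and 63.8. A mean leaves out empty libraries, and low surroundings raise the rise as a high point does. MACS2 listed no peak of ChIP over input at RPS24B or RPS1B in any library. It listed peaks of input over ChIP in 4 libraries at RPS24B, 3 at RPL31B and RPL2A, and 6 at RPL24A and RPL30. RPL3 had a peak of ChIP over input in 6 libraries and no reverse peak. At RPL34B (IX 254521 to 256664) the strongest point was downstream of the gene in 13 of 18 libraries. At RPS14B (X 73616 to 74699) it was in the intron in 14 and in coding sequence in 4. Its rise was 26.8, 33.01 and 41.2 in YJM789 in YPD and 71.8, 76.9 and 35.5 in 4NQO, 72.3, 46.1 and 41.9 in S96 in YPD and 35.6, 69.7 and 40.0 in 4NQO, and 38.8, 27.7 and 33.4 in S96-I775E in YPD and 48.0, 28.7 and 28.3 in 4NQO. The groups overlapped, library 3 was the lowest of YJM789 in 4NQO, and no comparison called the region.

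With limma, log2(rise + 1) was compared between groups over 1350 regions, 125 of them at ribosomal protein genes. The other 32 ribosomal protein regions had a value in fewer than 2 libraries of some group, mostly S96 in YPD, which had 30.0 ± 2.65 empty ribosomal protein regions per library against 4.67 to 17.0 in the other groups. Comparisons share groups, so their results are not independent of each other. The rise of a called region, and the point score within it, belong to the values tested. Whether their libraries overlap between groups is thus a description and adds no support to a call. Setting the library medians equal took the median difference over all regions, between −0.24 and 0.36 on the log2 scale in the 12 comparisons, to at most 0.03 from 0. It is therefore given beside each count. Counts with 1 library left out are given for the ribosomal protein regions only. They were not set against the calls over all regions in the same fits, so a change in them cannot be read as particular to these regions. The question of the first comparisons was how the alleles differ. Against S96 in YPD, the S96-I775E allele gave a lower rise at 11 of 125 ribosomal protein regions (8.8%) and a higher one at 0, while 4.96% of all tested regions were lower and 1.85% higher. Without the IRT1 region there were 10: RPL8A, RPL18B (a), RPL19A (a), RPL22A (b) and RPL41A of the large subunit, RPS0A (b), RPS4B (a), RPS11A and RPS14A of the small subunit, and RPP0. The median difference was −0.26 at the ribosomal protein regions and −0.24 over all regions. With library medians equal, 7 were lower and 0 higher, and the calls over all regions went from 25 higher and 67 lower to 57 and 25.

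RPP0 (XII 805893 to 807089) had a rise of 56.9, 65.6 and 76.7 in S96 in YPD and of 21.98, 24.97 and 18.7 in S96-I775E. The lowest S96 library was above the highest S96-I775E library, and the difference was −1.56 ± 0.30 (log2, SE, limma adjusted p = 0.00209). RPL18B (a) (XIV 63530 to 64084) had 44.2, 27.8 and 70.1 in S96 and 13.1, 15.2 and 13.8 in S96-I775E, a difference of −1.59 ± 0.32 (limma adjusted p = 0.00256). RPS14A (III 177393 to 178106) had 52.9, 56.7 and 45.8 against 19.2, 16.0 and 20.6, a difference of −1.43 ± 0.31 (limma adjusted p = 0.00615). RPL19A (a), whose protein forms a bridge between the subunits (II 414149 to 414779), had 45.3, 45.2 and 47.1 against 21.3, 17.6 and 14.8, a difference of −1.33 ± 0.31 (limma adjusted p = 0.00937). The libraries of the groups did not overlap at any of the 10 regions, but the regions were chosen by a test on the same values. The calls at RPP0, RPL18B (a), RPS14A and RPL19A (a) held when each of the 6 libraries was left out in turn. With the authors' other parameter set, m2, RPP0 kept its call, while RPL19A (a) had −1.47 (limma adjusted p = 0.0746), RPS14A −1.20 (0.111) and RPL18B (a) −0.92 (0.272). Of the 10 regions, 7 had a value in that set and 1 kept its call. The count of 11 became 5 without S96 library 2 or 3 and 7 without S96-I775E library 2 or 3. YJM789 in YPD had 20.4, 29.7 and 39.9 at RPS14A, which overlapped with S96-I775E. The other 6 had log2 differences from −0.93 to −1.63, each lost when at least 3 of the 6 libraries were left out in turn. The score at the point itself was lower in S96-I775E at 10 of 10 regions, and its libraries did not overlap with those of S96 at 5. The surroundings scored higher in S96-I775E at 9 of 10, and by more than the point scored lower at 4. At RPP0 the point scored 44.9 against 60.7 and the surroundings 23.1 against −5.72. At RPS11A the point scored 47.2 against 50.7 and the surroundings 26.3 against −14.3. None of the 10 regions overlapped a peak in 2 or more S96 libraries in YPD, although RPL18B had such a peak at its other region, (b). The part of the surroundings in these calls was not tested apart.

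Against S96 in YPD, the YJM789 allele gave a lower rise at 4 of 125 regions, or 3 without IRT1, and a higher one at 0, with 1.56% and 0.519% of all regions called. The 3 were RPL4A, RPS4B (a) and RPP0. RPL4A (II 300064 to 301549) had 19.2, 31.7 and 23.5 in YJM789 and 45.6, 61.6 and 69.2 in S96. The difference was −1.22 ± 0.31 (limma adjusted p = 0.0395). RPS4B (a) (VIII 504438 to 505262) had 21.4, 28.1 and 27.6 against 43.0, 66.4 and 81.1, a difference of −1.23 ± 0.29 (limma adjusted p = 0.0215). S96 was the higher in every library of these regions. RPS4A and RPS4B are 98.1% identical in coding sequence. At RPP0, 34.2, 28.7 and 24.2 stood against the S96 values above, a difference of −1.17 ± 0.30 (limma adjusted p = 0.0395). The point scores differed in the same direction without overlap at all 3 regions, and the surroundings scored higher in YJM789 at all 3. Once library medians were equal, 0 ribosomal protein regions were called, at differences of −1.04, −1.05 and −0.99 for RPL4A, RPS4B (a) and RPP0, and the calls over all regions went from 7 higher and 21 lower to 9 and 7. With m2, RPL4A kept its call at −1.78, and RPS4B (a) and RPP0, at −1.16 and −1.13, did not. Without YJM789 library 1 the count was 0, without YJM789 library 3 or S96 library 2 or 3 it was 1, and without S96 library 1 it was 7.

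In 4NQO, YJM789 against S96 gave a higher rise at 2 of 125 regions and a lower one at 0, with 3.04% and 0.37% of all regions. RPL19B (b) had 54.4, 41.2 and 31.6 against 23.4, 19.6 and 14.1, a difference of 1.11 ± 0.31 (limma adjusted p = 0.0434). RPP2A, an acidic protein of the stalk (XV 254170 to 254667), had 43.4, 54.4 and 40.7 against 9.47, 18.4 and 25.5, a difference of 1.42 ± 0.38 (limma adjusted p = 0.032). At RPP2A the point scored 39.7 and 41.0 in YJM789 and S96, and the surroundings −6.45 and 23.2. Both calls were lost with library medians equal, at differences of 0.94 (limma adjusted p = 0.0908) for RPL19B (b) and 1.25 (0.0579) for RPP2A, which took the calls over all regions from 41 higher and 5 lower to 21 and 11, and with each of YJM789 libraries 1 and 2 or S96 library 2 left out. Without S96 library 1 or 3 the count was 1, and without YJM789 library 3 it was 7. S96-I775E against S96 in 4NQO, and against YJM789 in YPD, gave 0 higher and 1 lower, the IRT1 region, with 1.26% higher and 0.593% lower, and 1.48% higher and 0.667% lower, over all regions. Under equal library medians, 0 and 1 were called in both comparisons, and the calls over all regions went from 17 higher and 8 lower to 20 and 7 against S96 in 4NQO, and from 20 and 9 to 31 and 6 against YJM789 in YPD. At IRT1 in YPD the rise was 327.2, 335.3 and 364.8 in S96, 214.9, 227.9 and 252.4 in YJM789 and 94.4, 104.4 and 98.0 in S96-I775E. The alleles did not overlap there, and S96-I775E differed from S96 by −1.78 ± 0.11 (log2, SE, limma adjusted p = 1.74e-12).

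S96-I775E against YJM789 in 4NQO gave a lower rise at 7 of 125 regions, or 6 without IRT1, and a higher one at 1, with 3.19% and 0.667% of all regions. The 6 were RPL25, which carries the docking site of the signal recognition particle, RPL29, RPL33A (b), RPL33B, RPL35A and RPS12. RPL33A and RPL33B are a duplicate pair. RPL33B (XV 778322 to 779188) had 18.5, 19.9 and 25.4 in S96-I775E and 50.7, 46.6 and 49.9 in YJM789, a difference of −1.18 ± 0.33 (limma adjusted p = 0.0419). RPL33A (b) had 19.95, 25.3 and 18.6 against 76.3, 60.2 and 46.1, a difference of −1.46 ± 0.37 (limma adjusted p = 0.0268). YJM789 was higher in every library of both copies. At RPL33A (b) the point scored 37.7 and 40.3, and the surroundings 16.4 in S96-I775E and −20.5 in YJM789. The region that was higher was RPL11A, whose protein also binds the 5S ribosomal RNA (XVI 731000 to 731675). It had 63.7, 46.9 and 38.8 in S96-I775E and 21.1, 15.2 and 18.3 in YJM789, a difference of 1.39 ± 0.37 (limma adjusted p = 0.0289). With m2, RPL33B kept its call at −1.66, and the other 6 regions did not, with RPL35A at −0.22 (−1.27 as reported, limma adjusted p = 0.0462). Without YJM789 library 3 the count of called regions rose from 8 to 16, and without any of the other libraries it was 1 or 2. With library medians equal, 2 were higher and 2 lower, and over all regions the calls went from 9 higher and 43 lower to 25 and 22.

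The next question was what 4NQO changed. In YJM789 cells the rise was higher in 4NQO at 8 of 125 regions (6.4%), near the 6.15% of all regions, and lower at 1, with 0.667% of all regions. The 8 were RPL4A, RPL17A (a), RPL20A (a), RPL28, RPL29, RPL33A (b) and RPL34B of the large subunit and RPS0A (b) of the small subunit. At the RPL34B region the strongest point lay downstream of the gene in most libraries, as given above. RPL4A had 64.7, 83.9 and 37.0 in 4NQO against 19.2, 31.7 and 23.5 in YPD, a difference of 1.24 ± 0.31 (limma adjusted p = 0.0157). RPL28 (VII 310817 to 312204) had 64.5, 66.6 and 54.3 against 28.9, 29.5 and 28.9, a difference of 1.05 ± 0.29 (limma adjusted p = 0.0262). RPL29 (VI 223123 to 223876) had 83.1, 86.0 and 45.1 against 15.6, 30.0 and 27.5, a difference of 1.51 ± 0.39 (limma adjusted p = 0.0172). In these 3 regions all 4NQO libraries were above all YPD libraries, with library 3 the lowest in 4NQO. The point scores did not overlap between the media at 7 of the 9 called regions, RPL29 and RPL33A (b) being the exceptions, where the surroundings scored −19.8 and −20.5 in 4NQO. With m2, RPL4A, RPL29 and RPL34B kept their calls, RPL17A (a), RPL20A (a), RPL28 and RPL33A (b) did not, and RPS0A (b) had no value. Of the 8 regions that were higher, 4 had a peak in at least 2 YJM789 libraries in 4NQO. With library medians equal, 2 were higher and 2 lower, and over all regions the calls went from 83 higher and 9 lower to 35 and 16. Without YJM789 library 1 in YPD the higher regions numbered 0, without library 2 or 3 in YPD 3 or 2, without library 1 or 2 in 4NQO 1, and without library 3 in 4NQO 11.

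In S96 cells the rise was lower in 4NQO at 3 of 125 regions, or 2 without IRT1, and higher at 0, with 1.19% and 1.41% of all regions. RPS14A had 27.4, 17.97 and 18.2 in 4NQO against 52.9, 56.7 and 45.8 in YPD, a difference of −1.27 ± 0.31 (limma adjusted p = 0.0232). RPS4B (a) had 27.8, 27.4 and 20.9 against 43.0, 66.4 and 81.1, a difference of −1.25 ± 0.29 (limma adjusted p = 0.0138). MACS2 listed a peak at RPS14A in 2 S96 libraries in 4NQO and in 0 in YPD, the opposite order. At both regions, all YPD libraries were above all 4NQO libraries, but the point scores overlapped, at means of 49.2 and 56.9 for RPS14A, and the surroundings scored 28.0 in 4NQO and 5.15 in YPD. With m2, RPS14A kept its call and RPS4B (a) did not. With library medians equal, 2 were lower, and over all regions the calls went from 19 higher and 16 lower to 26 and 10. Without S96 library 2 or 3 in YPD or library 3 in 4NQO, 0 were called, and without library 2 in 4NQO 1. In S96-I775E cells 0 of 125 regions were called by limma in either direction, with 1.93% of all regions higher and 0.667% lower. At an unadjusted p under 0.05, 9 were higher and 8 lower, and on the linear scale 1 was higher and 1 lower after adjustment. Under equal library medians 0 were called, and the calls over all regions went from 26 higher and 9 lower to 15 and 9.

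**Figure D5:**
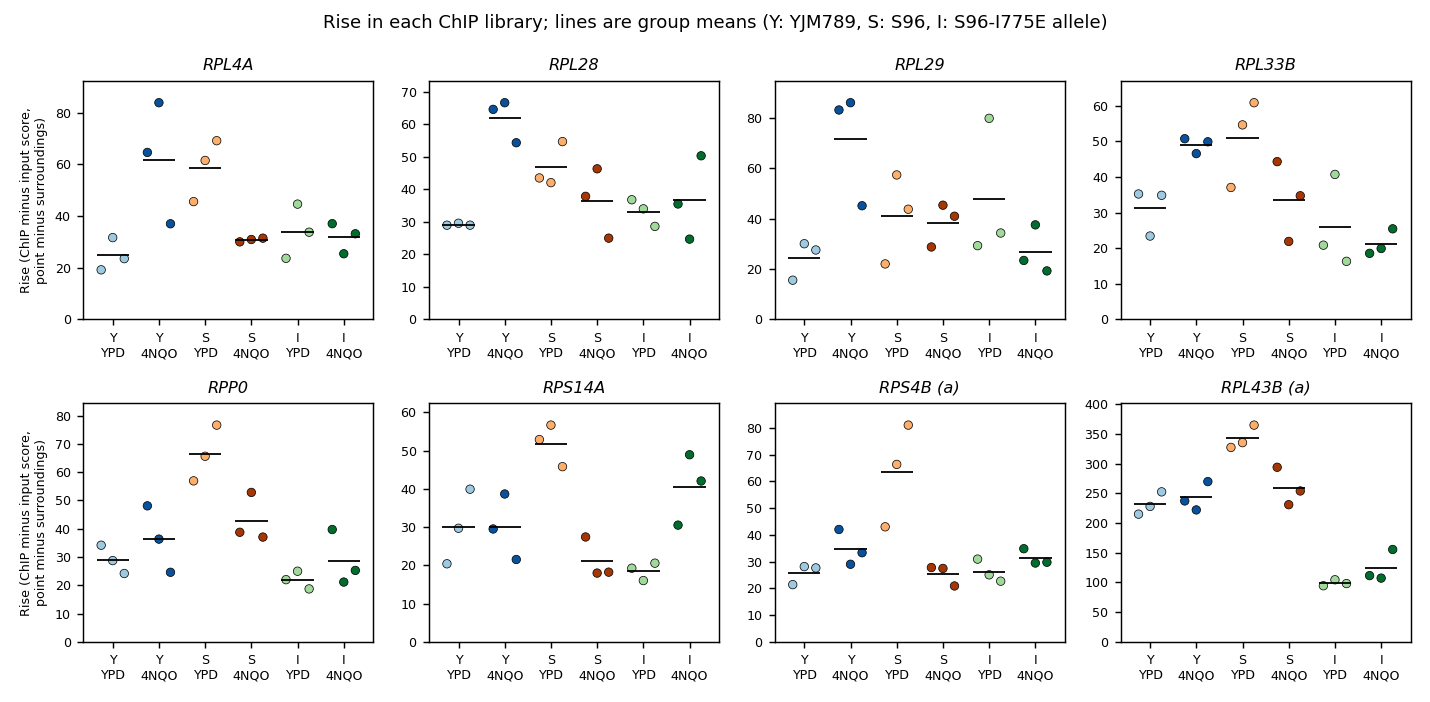
Rise in each of the 18 ChIP libraries (y axis, score, from 0; x axis, groups by allele and medium) at 7 ribosomal protein regions called in a comparison and at the IRT1 region listed for RPL43B; lines are group means. RPL28 stands high in YJM789 in 4NQO, RPL4A there and in S96 in YPD, and RPP0, RPS14A and RPS4B (a) in S96 in YPD, while the IRT1 panel runs to 364.8.

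Whether the response to 4NQO differed between alleles was tested as a difference of differences. The response of YJM789 exceeded that of S96 at 7 of 125 ribosomal protein regions (5.6%), and was below it at 0, with 3.56% and 0.37% of all regions. The median over the members was 0.57, against 0.36 over all regions. The 7 were RPL4A, RPL19A (a), RPL25, RPL28, RPL34B, with its strongest point mostly downstream of the gene, RPS4B (a) and RPS16B. RPL4A had the largest of these differences, 2.13 ± 0.44 (limma adjusted p = 0.0113), and its call held when each of the 12 libraries was left out. Under equal library medians, 1 of the 7 was called, RPL4A, and over all regions the calls went from 48 higher and 5 lower to 4 and 5. Without YJM789 library 1, 2 or 3 in 4NQO the counts were 3, 2 and 13, without library 1 or 3 in YPD 2 and 3, and without S96 library 1, 2 or 3 in YPD 12, 4 and 1. The response of S96-I775E exceeded that of S96 at 4, with 1.93% of all regions, and was below it at 0, with 0.667%. They were RPL19A (a), RPS4B (a), RPS14A and the IRT1 region. RPS14A was not called for S96-I775E between the media, with 30.5, 48.9 and 42.1 in 4NQO and 19.2, 16.0 and 20.6 in YPD, but the difference from the S96 response was 2.33 ± 0.44 (limma adjusted p = 0.00713) and held without each library in turn. Against YJM789, the S96-I775E response was lower at 2 regions, RPL29 and RPL5 (b), with 1.63% of all regions, and higher at 0, with 0.37%. Once library medians were equal, 1 of these 4 and 1 of these 2 were called, and over all regions the calls went from 26 higher and 9 lower to 6 and 13, and from 5 and 22 to 7 and 11. Against S96, the count of 4 was 7 without S96 library 1 in YPD, and 2 without S96 library 3 in either medium or S96-I775E library 3 in YPD. Against YJM789, the count of 2 lower regions was 0 without YJM789 library 1 or 2 in 4NQO, S96-I775E library 2 in YPD or S96-I775E library 1 or 3 in 4NQO. It was 1 without S96-I775E library 1 in YPD, 3 without YJM789 library 3 in YPD and 5 without YJM789 library 3 in 4NQO, while without YJM789 library 1 in YPD 1 region was higher and 0 lower.

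The duplicates of called genes mostly did not pass the same test. Of 31 tested values at the other copy of a called gene, 2 were called, those of RPL33A (b) and RPL33B against each other. In their comparison 3.19% of all regions were lower. Of the rest, 23 had the same direction and 6 the opposite one. In these comparisons 78 to 94 of the 125 tested ribosomal protein regions lay on the side of most calls. The count of 23 can therefore not be read as agreement between copies. RPL4B had a log2 difference of 0.19 ± 0.30 between YJM789 and S96 in YPD, where RPL4A had −1.22, and its response difference between these alleles was 0.48 ± 0.43, where RPL4A had 2.13. RPS14B had −0.64 ± 0.33 where RPS14A had −1.43, between S96-I775E and S96 in YPD. RPS4A (a) had −1.08 ± 0.35 in that comparison (limma adjusted p = 0.0586), near the −1.21 of RPS4B (a). Whether the copies of a pair differed was not tested.

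Other gene lists were counted in the same way, with no test between lists. A peak in at least 2 libraries of some group was found at 1 of 14 regulators of ribosomal protein genes, at 1 of 32 ribosome assembly genes and at 3 of 67 mitochondrial ribosomal protein genes, against 44 of 138 cytosolic ones and 11 of 17 glycolysis genes, another heavily transcribed group, beside 6.78% of all genes. As shares, the first 3 lists stood at 7.14%, 3.12% and 4.48%. In YJM789 in 4NQO alone the counts were 1, 1, 2, 31 and 11, beside 5.53%. The response of YJM789 minus that of S96 had a median of 0.29 over the 6 regions of the regulators, 0.42 over 10 of ribosome assembly, 0.33 over 19 of mitochondrial ribosomal proteins and 0.90 over 16 of glycolysis, with 0, 1, 0 and 3 regions called higher and 0 lower, beside 3.56% and 0.37% of all regions. In S96-I775E against S96 in YPD, 0, 1, 1 and 3 regions of these lists were called lower, beside 4.96%. Among the cytosolic genes, 24 of 76 RPL, 18 of 56 RPS and 2 of 6 RPP genes had a recurrent peak, RPP1 being 1 of the 2.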

How the data were processed

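Chromatin bound by Myc-tagged Yrr1 was sequenced in 18 ChIP libraries with 6 input libraries. Build sacCer3 and the tools Bowtie2 2.2.3, CASAVA 1.7 and MACS2 2.1.0 appear in the submitters' processing notes, with no role or order. Per the file headers, the deposited MACS2 peak tables hold a fold (ratio) of ChIP over input and a −log10 q for each peak and library. Their p-values were not used here. The deposited CisGenome tables hold a log2 fold and a false discovery rate, a q-value, per peak and group. The deposited region table holds, per library, a score of coverage in ChIP less input at the strongest point, and the rise of that signal over its surroundings. MACS2 and region tables come in parameter sets named mn, used here, and m2, an alternative, and no source used here explains the names. The shares of regions that overlap a MACS2 peak count peaks of both sets. A further 22 columns of values and positions were not used.

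A gene had a peak if at least 1 bp of it lay between 500 bp upstream of the start codon and the stop codon, and a recurrent peak if this held in 2 of 3 libraries of a group. Regions with a value in at least 2 libraries of every group were tested with limma 3.58.1 (R 4.3.3) on log2(rise + 1) in 1 fit over 18 libraries and 6 groups, with Benjamini-Hochberg adjustment over all 1350 tested regions and a threshold of 0.05. A fold on this scale understates changes at low values, and an empty library was left out of a region's fit, as for RPL19A (a) in YJM789 library 3 in 4NQO. Tables and sequences were read with Python 3.11.15, pandas 2.3.3 and Biopython 1.88.

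Named were regions called in a comparison (up to 8 per direction), genes with recurrent peaks in 2 groups, the 10 highest and 5 lowest regions by mean rise, genes with a CisGenome peak of false discovery rate under 1, regions with the strongest point mostly upstream, and duplicates of called genes. RPS9A, RPS31, RPL43B and the genes with input-over-ChIP peaks were named after their values were seen. Members, lists and tests were chosen with earlier results of these data known. Alternatives were the m2 set, another pseudocount, the linear scale, equal library medians, other filters, fewer groups per fit, a replicate block and leaving out each library. Some results that these rules name are not reported here, while counts include them.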

Additional observations from a re-analysis of the deposited data

Results flagged for a closer look

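The responses to 4NQO differed between alleles, by a limma test of the difference itself, at 13 results on the log2 scale. The YJM789 response exceeded that of S96 by 2.13 at RPL4A, 1.85 at RPL19A (a), 1.85 at RPL25, 1.67 at RPS4B (a), 1.57 at RPS16B, 1.44 at RPL28 and 1.41 at RPL34B, with SEs of 0.39 to 0.48 and limma adjusted p from 0.0113 to 0.044. Of these 7, RPL4A kept its call without each of 12 libraries, RPL19A (a) and RPS4B (a) without 9 of 12, RPL25 without 8, and RPS16B, RPL34B and RPL28 without 3 or 4. With the m2 parameter set RPL4A and RPL34B kept their calls, and the other 5 had 0.92 to 2.17 with limma adjusted p from 0.0844 to 0.325. Of the 7, RPL4A alone kept its call with library medians equal. The S96-I775E response exceeded that of S96 by 2.33 at RPS14A, 1.79 at RPL19A (a), 1.51 at RPS4B (a) and 0.72 at the IRT1 region listed for RPL43B. The call held without each of 12 libraries at RPS14A and IRT1, without 7 of 12 at RPL19A (a) and without 2 of 12 at RPS4B (a). With m2 it held at RPS14A and IRT1. With library medians equal it held at RPS14A alone. IRT1 then had 0.51 (limma adjusted p = 0.117), RPL19A (a) 1.58 (0.0646) and RPS4B (a) 1.30 (0.0881). The S96-I775E response was below that of YJM789 at RPL29, by −2.24, and at RPL5 (b), by −1.67. These calls held without 6 and 4 of 12 libraries, and with m2 and with library medians equal at RPL29 alone. The S96 libraries enter every result against S96, so these are not independent of each other.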

How the results depend on the processing

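Counts are of called ribosomal protein regions, in the order YJM789 minus S96 in YPD (4 as reported) and in 4NQO (2), S96-I775E minus S96 in YPD (11) and in 4NQO (1), S96-I775E minus YJM789 in YPD (1) and in 4NQO (8), 4NQO minus YPD in YJM789 (9), S96 (3) and S96-I775E (0), and the response of YJM789 minus S96 (7), S96-I775E minus S96 (4) and S96-I775E minus YJM789 (2). Leaving out 1 library gave 0 to 7, 0 to 7, 5 to 14, 1 to 1, 1 to 1, 1 to 16, 1 to 12, 0 to 4, 0 to 0, 1 to 13, 2 to 7 and 0 to 5. These ranges were not set against the calls over all regions in the same fits. Without YJM789 library 1 in YPD, 4NQO minus YPD in YJM789 turned to 0 higher and 1 lower, and the response of S96-I775E minus YJM789 to 1 higher and 0 lower. With empty values as 0, the direction of most calls turned in S96-I775E minus YJM789 in YPD (3 higher, 2 lower, 5 in all), 4NQO minus YPD in S96 (8 and 4, 12 in all) and the response of S96-I775E minus S96 (2 and 4, 6 in all), and RPS0A (b) turned to 0.66 in S96-I775E minus S96 in YPD. Other counts with empty values as 0 were 10 and 0 for YJM789 minus S96 in YPD and 4NQO, 19 for S96-I775E minus S96 in YPD, 2 for S96-I775E minus YJM789 in 4NQO and 4 for 4NQO in YJM789. The m2 set gave 2, 4, 4, 2, 2, 1 and 2 for YJM789 minus S96 in YPD and 4NQO, S96-I775E minus S96 in YPD, S96-I775E minus YJM789 in YPD and 4NQO, 4NQO in S96 and the response of S96-I775E minus S96. Equal library medians gave 0, 0, 7, 4, 4, 1, 1 and 1 for both YJM789 minus S96 comparisons, S96-I775E minus S96 in YPD, S96-I775E minus YJM789 in 4NQO, 4NQO in YJM789 and the 3 responses. Fits on the groups compared alone gave 2, 0, 1, 2, 5 and 1 for YJM789 minus S96 in YPD and 4NQO, S96-I775E minus YJM789 in 4NQO and 4NQO in YJM789, S96 and S96-I775E. Without regions under a peak of input over ChIP, an alternative chosen after seeing the data, the counts were 2, 1, 5, 4, 4 and 1 for the same first 4 and the responses of YJM789 minus S96 and S96-I775E minus YJM789. No filter on the number of values gave 1 for YJM789 minus S96 in 4NQO and 6 for 4NQO in S96, and the linear scale 6 for 4NQO in S96, 2 for 4NQO in S96-I775E and 1 for the last response. A pseudocount of 10 gave 1 and a mean rise of at least 20 gave 2 for 4NQO in S96-I775E. Without upstream sequence the IRT1 region was no member and the counts of 1 became 0. Of 52 called results, 12 kept their call without each library, 20 with equal medians, 17 of the 46 with a value with m2, and 7 under every setting. These totals include the IRT1 region, which kept its call under every setting in S96-I775E against S96 and against YJM789, in both media. The others under every setting were RPP0 in S96-I775E minus S96 in YPD and 2 response differences. These were RPL4A in YJM789 minus S96 and RPS14A in S96-I775E minus S96. The cause of these changes was not tested.

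Replicate numbers are shared between groups, but same-numbered libraries did not deviate together: r of their deviations ran from −0.0655 to 0.0703, and 8 of 27 correlated best with their own number. The replicate block gave 4, 2, 11, 1, 1, 6, 9, 3, 0, 5, 3 and 2 calls in the order above.

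For MACS2 peaks, a fold of at least 2 gave 5 genes in YJM789 in 4NQO (31 as reported) and 0 in the other groups. A −log10 q of at least 5 gave 4 and 0, and a peak in all 3 libraries gave 1 in each group in 4NQO and 0 in YPD. The m2 set gave 14 (9 as reported) in S96 and 15 (9) in S96-I775E in YPD, and 8 (4) for input over ChIP in YJM789 in YPD. Leaving out 1 library gave 0 to 0 and 1 to 31 for YJM789 in YPD and 4NQO, 0 to 8 and 1 to 11 for S96, and 0 to 5 and 1 to 2 for S96-I775E. A gene then needed a peak in both remaining libraries, so these counts could not rise. For input over ChIP it gave 3 to 4, 0 to 0, 14 to 16, 0 to 1, 0 to 0 and 0 to 0. CisGenome peaks with a false discovery rate under 1 were at 0, 0, 1, 8, 0 and 4 genes of the 6 groups, and an overlap of 100 bp gave 6 in S96 in YPD. Depth is unknown, so a gene without a peak is one where none was detectable.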
